A study of Mus musculus with 42 samples.

Results

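Golf is the stimulatory G protein that carries dopamine and adenosine receptor signals to adenylyl cyclase in the striatum, and its alpha subunit is encoded by Gnal. This gene and 6 of the membrane adenylyl cyclase genes, Adcy1, Adcy2, Adcy3, Adcy5, Adcy8 and Adcy9, were followed through microarray profiles of mouse striatum and hippocampus. Members were every probe set annotated to 1 of these 7 genes alone, 19 of the 34945 probe sets with a single gene, and the genes were 7 of the 18193 tested. The cyclase genes Adcy4, Adcy6, Adcy7 and Adcy10 were a comparison list.

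Adenylyl cyclases make cAMP from ATP at the membrane when a receptor-coupled G protein activates them, and phosphodiesterases such as PDE10A break cAMP and cGMP down again. PDE10A is abundant in the projection neurons of the striatum, so its loss or inhibition is expected to raise both second messengers there. The cyclases differ in what drives them besides Gs or Golf: calcium with calmodulin stimulates the products of Adcy1 and Adcy8, calcium inhibits that of Adcy5, and G protein beta and gamma subunits together with protein kinase C stimulate that of Adcy2.

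The tissue was snap-frozen, microdissected striatum or hippocampus of C57BL6 mice. Mice were labelled either PDE10A KO, a knockout (KO), or wild type (WT), and had received a PDE10 inhibitor (PDE10i) or its vehicle. Striatum had 4 KO PDE10i, 5 KO vehicle, 6 WT PDE10i and 5 WT vehicle arrays, and hippocampus had 5 KO PDE10i, 5 KO vehicle, 6 WT PDE10i and 6 WT vehicle arrays. The compound, its dose, the time after dosing, the age of the mice and the design of the knockout allele are not given in the labels. Nor do these state whether each array of a group is its own mouse, and the p-values therefore cover the scatter of these samples alone, part of which may be technical. Values are log2 expression, in which 1 unit is a doubling of signal.

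The mean of 11 markers of striatal projection neurons lay between 10.8 and 11.7 on the striatal arrays and between 7.44 and 7.82 on the hippocampal arrays. The mean of 8 hippocampal subfield markers was 6.34 to 6.94 on the striatal arrays and 8.72 to 9.33 on 21 of the 22 hippocampal arrays. It was 7.12 on hippocampus WT PDE10i 13, which stood apart and, within its group, was lowest for Adcy9 (10.14) and highest for Adcy8 (8.15) and Adcy3 (9.003). Without it the striatal minus hippocampal differences under PDE10i in WT were -0.83 ± 0.07 for Adcy9, -1.72 ± 0.28 for Adcy8 and 0.67 ± 0.09 for Adcy3, against -0.78 ± 0.07, -1.86 ± 0.27 and 0.63 ± 0.09 with it. A loss of signal could not serve as a check of the knockout label, because Pde10a was not lower in KO. It ran from 12.1 to 12.7 in striatum of KO vehicle mice and from 12.1 to 12.6 in striatum of WT vehicle mice, with a difference of 0.03 ± 0.16 (SE, adjusted p = 0.997), and whether its probes lie in the deleted part is unknown here. A score of 15 genes per region on chromosome 17, the chromosome of Pde10a, put 8 arrays on the side of the other genotype label: the library labelled striatum KO vehicle 25, those labelled striatum WT PDE10i 13, 14 and 15, those labelled hippocampus KO vehicle 25 and 26, and those labelled hippocampus WT PDE10i 12 and 14. Striatum WT PDE10i 13 and 15 were barely past the midpoint of 0.5, at 0.516 and 0.535. The hippocampal arrays of the same numbers scored 0.182 and -0.09, but the labels do not say whether equal numbers are 1 mouse. Pde10a, which is not part of the score, overlapped between KO and WT in striatum, where KO vehicle 25 was at 12.37. In hippocampus it was 9.51 to 9.81 in KO PDE10i and 8.94 to 9.04 in WT vehicle. KO vehicle 25 and 26 were at 9.04 and 9.08 there, against 9.52 to 10.16 on the rest of that group. WT PDE10i 12 and 14 were at 9.88 and 9.84, against 8.54 to 9.29 on the rest. Whether any label is wrong was not tested. Calls of the 7 genes that change without the 8 arrays named above are given both ways.

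The 250 bases upstream of the annotated start are shown for 2 cyclase genes that were lower in striatum than in hippocampus, because they differ in TGACG, the core of the cAMP response element, a motif bound by the cAMP-responsive factor CREB. Sequences are from RefSeq on build GRCm38.p6, each 5′ to 3′ on the strand of its gene, with this core in capitals.
Adcy1, chr11:7063183-7063432, plus strand: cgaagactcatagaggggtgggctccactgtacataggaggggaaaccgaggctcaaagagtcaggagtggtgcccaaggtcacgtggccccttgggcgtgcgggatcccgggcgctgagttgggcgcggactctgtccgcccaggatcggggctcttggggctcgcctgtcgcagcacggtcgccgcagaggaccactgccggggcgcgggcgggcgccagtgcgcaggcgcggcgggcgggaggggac
Adcy9, chr16:4420499-4420748, minus strand: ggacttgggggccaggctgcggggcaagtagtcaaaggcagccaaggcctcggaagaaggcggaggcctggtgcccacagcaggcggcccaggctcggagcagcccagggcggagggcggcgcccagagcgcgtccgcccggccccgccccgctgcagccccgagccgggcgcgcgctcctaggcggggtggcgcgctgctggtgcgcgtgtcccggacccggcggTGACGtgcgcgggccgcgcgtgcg
The Adcy9 window held 1 such core, 24 bases before the start, and the Adcy1 window held none. The Adcy9 window lies inside the annotated span of the gene. Among the 32851 promoter windows of the same length, 17.8% held TGACG on either strand, and 1.55% held the full element TGACGTCA. The GC-rich motif GGGCGG, searched on both strands, occurred 3 times upstream of Adcy1 and 4 times upstream of Adcy9, and in 32.7% of all windows. Of the 7 genes, 5 had an entry in the sequence table. The windows of Adcy2, Adcy3 and Adcy5, which lie partly or wholly within their annotated genes and are not printed, held no TGACG.

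Striatum and hippocampus differed in all 7 genes. Gnal and Adcy5 were about 5-fold and 8-fold higher in striatum, Adcy3 was slightly higher, and Adcy1, Adcy2, Adcy8 and Adcy9 were lower. Under vehicle in WT mice all 7 passed an adjusted p of 0.05 in limma, 3 higher and 4 lower, where 33.9% of all genes passed, 15.9% higher and 17.9% lower. Under PDE10i in WT and under vehicle in KO, 7 also passed, against 35.6% and 27.3% of all genes, and under PDE10i in KO 6 passed, against 26.1%. In each of the 4 arms the striatal and hippocampal values of all 7 genes did not overlap, while 22.7% of all genes were separated in this way in KO PDE10i, 19.7% in KO vehicle, 20.1% in WT PDE10i and 21.2% in WT vehicle. The median absolute difference under vehicle in WT was 1.43 over the 7 genes and 0.14 over all genes. These are bulk samples, in which fewer cells of a type and less RNA per cell cannot be told apart.

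Gnal had log2 values of 12.26, 12.03, 12.46, 12.40 and 12.16 in striatum of WT vehicle mice, against a lowest of 9.53, a median of 9.96 and a highest of 10.13 in hippocampus. Every striatal array lay above every hippocampal array. The difference was 2.35 ± 0.11 (SE), a 5.08-fold higher signal in striatum (adjusted p = 1.38e-19). In the other arms it was 2.54 ± 0.12 in KO PDE10i, 2.57 ± 0.12 in KO vehicle and 2.75 ± 0.11 in WT PDE10i. A second Gnal probe set, with a mean of 10.7 over the 42 arrays, gave 2.23 ± 0.10 under vehicle in WT. The third had a mean of only 4.44 and gave 0.21 ± 0.09 (adjusted p = 0.0735).

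Adcy5, the main cyclase partner of Golf in striatal neurons, showed the widest regional difference of the 7 by its brightest probe set, an order that did not hold when probe sets were averaged. It had values of 12.22, 12.23, 12.49, 12.48 and 12.06 in striatum of WT vehicle mice, against a lowest of 9.23, a median of 9.29 and a highest of 9.39 in hippocampus. The groups lay far apart, with a difference of 3.00 ± 0.10, or 7.98-fold (adjusted p = 3.51e-24). The difference was 2.63 ± 0.12 in KO PDE10i, 2.83 ± 0.11 in KO vehicle and 3.07 ± 0.10 in WT PDE10i. Its 4 probe sets disagreed in size. The second brightest, with a mean of 8.63 over the 42 arrays, gave 1.08 ± 0.17 under vehicle in WT, while the pair with means of 4.92 and 3.95 gave 0.03 ± 0.08 and -0.07 ± 0.09. Averaging the 4 probe sets lowered the Adcy5 difference to 1.01 ± 0.07, and averaging the 3 of Gnal gave 1.59 ± 0.07, both smaller in size than Adcy1 averaged in the same way, at -1.68 ± 0.19.

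Adcy3, the cyclase that works with Golf in olfactory neurons and also a component of neuronal primary cilia, was higher in striatum by a small margin. It had 9.31, 9.19, 9.20, 9.16 and 9.04 in striatum of WT vehicle mice, against a lowest of 8.55, a median of 8.77 and a highest of 8.91 in hippocampus. These values did not overlap, and the difference was 0.43 ± 0.10, or 1.35-fold (adjusted p = 5.20e-04). It was 0.63 ± 0.09 in WT PDE10i and 0.36 ± 0.10 in KO vehicle (adjusted p = 0.0061). In KO PDE10i it was 0.27 ± 0.11 and missed the threshold (adjusted p = 0.0628). The KO vehicle call rested on 1 striatal array, number 25, at 9.75 against 9.05 to 9.32 on the other 4: without it the difference was 0.23 ± 0.09 (adjusted p = 0.0538). Without the 8 arrays named above, Adcy3 differed by 0.22 ± 0.09 in KO vehicle (adjusted p = 0.0905) and by 0.27 ± 0.08 in KO PDE10i (adjusted p = 0.0114). The other Adcy3 probe sets gave 0.32 ± 0.08, 0.31 ± 0.09 and 0.09 ± 0.14 under vehicle in WT.

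**Figure D1:**
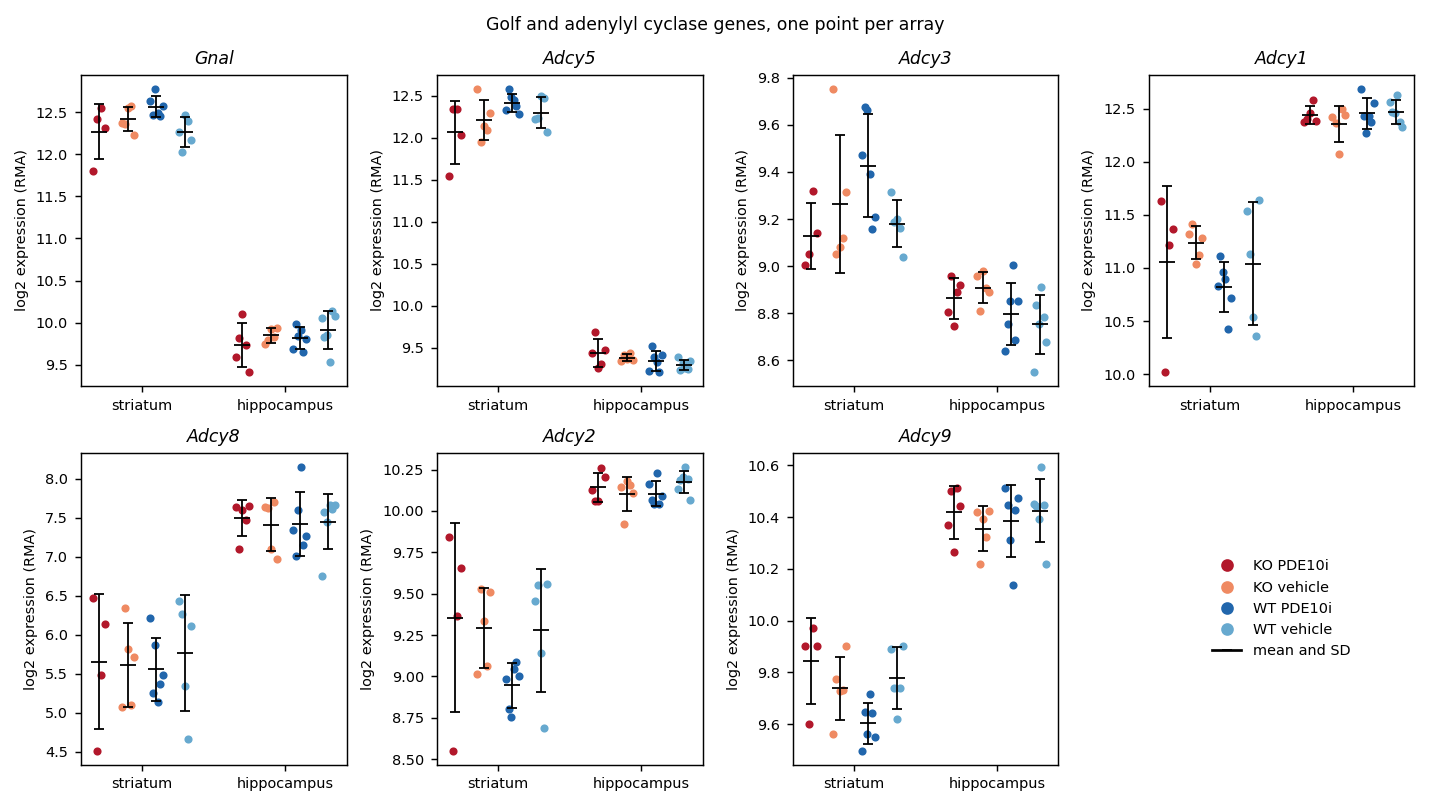
Log2 expression of the 7 genes (vertical axes, a separate scale for each gene) on every array, with striatum on the left and hippocampus on the right of each panel and the 4 arms in the order KO PDE10i, KO vehicle, WT PDE10i, WT vehicle. Points are arrays and bars the mean and SD (n = 4 to 6). Within each arm the regions are apart for every gene. The striatal points of Adcy1, Adcy8, Adcy2 and Adcy5 scatter more than the hippocampal ones in KO PDE10i and WT vehicle.

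The calcium-stimulated cyclases Adcy1 and Adcy8, both known for their part in hippocampal plasticity, were lower in striatum. Adcy1 had 11.54, 11.13, 10.54, 10.36 and 11.64 in striatum of WT vehicle mice, against a lowest of 12.33, a median of 12.46 and a highest of 12.63 in hippocampus. The difference was -1.43 ± 0.19, a 2.69-fold lower signal in striatum (adjusted p = 6.77e-08), and its other probe set gave -1.93 ± 0.21. In the other arms Adcy1 differed by -1.38 ± 0.21 in KO PDE10i, -1.12 ± 0.19 in KO vehicle and -1.63 ± 0.18 in WT PDE10i.

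Adcy8 had 6.43, 6.27, 5.34, 4.66 and 6.11 in striatum of WT vehicle mice, against a lowest of 6.75, a median of 7.59 and a highest of 7.66 in hippocampus. Its single probe set differed by -1.69 ± 0.29 (adjusted p = 1.06e-05), and by -1.80 to -1.86 in the other arms. The striatal mean of 5.76 lay below the array medians of 6.05 to 6.12 and below the level of 6 used as a filter on dim genes, so the size of this difference is uncertain and no fold is given. The gap between the regions in WT vehicle was narrow for Adcy8: the highest striatal array was 6.43 and the lowest hippocampal array 6.75. That narrow gap rests on hippocampal array 1, as the other hippocampal arrays of this group lay at 7.44 to 7.66.

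Adcy2 had 9.45, 9.55, 9.14, 8.69 and 9.56 in striatum of WT vehicle mice, against a lowest of 10.07, a median of 10.19 and a highest of 10.27 in hippocampus. All striatal values were lower, with a difference of -0.90 ± 0.14, or 1.86-fold (adjusted p = 2.40e-06). The widest Adcy2 difference, -1.16 ± 0.13, was in WT PDE10i, and the narrowest, -0.79 ± 0.16, in KO PDE10i. Without striatum KO PDE10i 35 the KO PDE10i difference of Adcy2 was -0.52 ± 0.13 (adjusted p = 0.0028).

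Adcy9, a widely expressed cyclase that responds weakly to forskolin, had 9.89, 9.74, 9.62, 9.74 and 9.90 in striatum of WT vehicle mice, against a lowest of 10.22, a median of 10.45 and a highest of 10.59 in hippocampus. It was lower in striatum by a modest step, -0.65 ± 0.07 or 1.57-fold (adjusted p = 2.17e-09). Its 4 probe sets gave like values, from -0.58 ± 0.10 to -0.76 ± 0.10 under vehicle in WT.

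**Figure D2:**
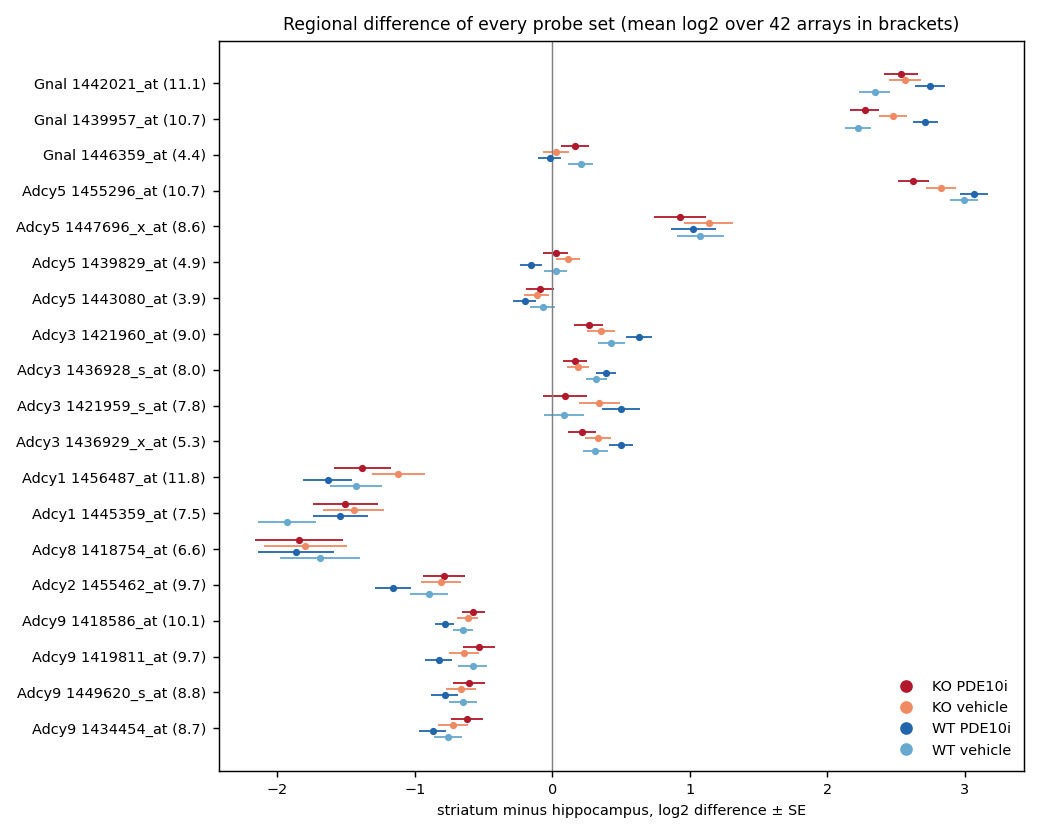
Difference between striatum and hippocampus on the log2 scale (horizontal axis) for all 19 probe sets (rows, with the mean over 42 arrays in brackets), by arm in 4 colours, with bars of 1 SE. The bright Gnal and Adcy5 probe sets lie far right of 0, the dim ones of the same genes (means of 3.95 to 4.92) lie near 0, and every probe set of Adcy1, Adcy8, Adcy2 and Adcy9 lies left of 0.

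Within striatum the levels of the arms lay close together. Gnal averaged 12.27 ± 0.33 in KO PDE10i, 12.42 ± 0.14 in KO vehicle, 12.56 ± 0.13 in WT PDE10i and 12.26 ± 0.17 in WT vehicle (SD, n = 4, 5, 6 and 5). Adcy5 averaged 12.06 ± 0.38, 12.21 ± 0.24, 12.42 ± 0.11 and 12.30 ± 0.18 in the same groups. The ranges of neighbouring groups overlapped in both genes, so their order is not settled.

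None of the 7 genes passed the threshold for the inhibitor or the genotype in either region. In striatum 0 of 7 passed for PDE10i against vehicle in WT, where 0.181% of all genes passed, and 0 of 7 for KO against WT under vehicle, where 0.137% passed. For PDE10i against vehicle in KO, for the difference between the inhibitor effects in KO and WT, and for all 4 hippocampal comparisons, 0 of 7 passed and 0% of all genes did. In the WT inhibitor comparison in striatum 3 of the 7 had an unadjusted p under 0.05, namely Gnal, Adcy9 and Adcy3, where 9.57% of all genes did. The KO comparison had 0 such genes in striatum (5.94% of all genes) and 1, Adcy3, in hippocampus (6.62%). PDE10i in KO had 0 in striatum (1.41%) and 0 in hippocampus (3.82%), and PDE10i in WT had 0 in hippocampus (10.7%). The difference between the inhibitor effects had 3 in striatum (7.4%), Gnal, Adcy9 and Adcy3, and 0 in hippocampus (11.8%).

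Gnal had a lowest value of 12.45, a median of 12.53 and a highest of 12.78 in striatum of WT PDE10i mice, against 12.26, 12.03, 12.46, 12.40 and 12.16 in striatum of WT vehicle mice. The groups overlapped slightly, the highest vehicle array lying just above the lowest inhibitor array. The difference was 0.30 ± 0.11, or 1.23-fold, with a 95% interval of 0.07 to 0.53 and an adjusted p of 0.361. The second Gnal probe set gave 0.37 ± 0.10 (adjusted p = 0.255 over all probe sets). In KO mice the inhibitor difference of Gnal was -0.15 ± 0.12, and the effect in KO minus that in WT was -0.45 ± 0.17 (unadjusted p = 0.0142, adjusted p = 0.555).

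Adcy3 had a lowest value of 9.16, a median of 9.43 and a highest of 9.68 in striatum of WT PDE10i mice, against 9.31, 9.19, 9.20, 9.16 and 9.04 in WT vehicle mice. Arrays 10, 11, 12 and 13 lay above all vehicle arrays and arrays 14 and 15 among them. The difference was 0.25 ± 0.12 (adjusted p = 0.521). Leaving out the arrays on the other side of the chromosome 17 score leaves arrays 10, 11 and 12 against the 5 vehicle arrays. Adcy3 was then higher by 0.42 ± 0.09 and passed (adjusted p = 0.0128), as 1 of 769 genes that passed in this fit. That Adcy3 value leaves out arrays 13 and 15, which lie close to the midpoint of the score. Without array 14 alone, at a score of 0.792, Adcy3 differed by 0.30 ± 0.12 (adjusted p = 0.312). The same 3 arrays had the highest signals of vascular markers in WT striatum: the mean of 9 markers of endothelial cells and pericytes was 8.37, 8.42 and 8.45 there, 7.81 to 8.002 on arrays 13, 14 and 15, and 7.65 to 7.94 in WT vehicle. Over all arrays of the comparison all 9 markers had positive differences, with a median of 0.34, and 0 passed. With this mean as a covariate, Adcy3 differed by -0.03 ± 0.10 over all arrays and by 0.24 ± 0.29 without the doubted ones, and neither passed (adjusted p = 0.999 and 0.979). Both fits with this covariate were chosen after seeing the data. The part of vascular tissue in the Adcy3 difference was not tested.

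Adcy9 had a lowest value of 9.498, a median of 9.604 and a highest of 9.71 in striatum of WT PDE10i mice, against 9.89, 9.74, 9.62, 9.74 and 9.90 in WT vehicle mice. All inhibitor arrays lay below 4 of the vehicle arrays, and array 3 of the vehicle group lay among them. The difference was -0.18 ± 0.08 (adjusted p = 0.447). In KO it was 0.11 ± 0.08, and the effect in KO minus that in WT was 0.28 ± 0.11 (adjusted p = 0.582).

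The other 4 genes had wide intervals or small differences in the same comparison. Adcy5 differed by 0.12 ± 0.13, with a 95% interval of -0.15 to 0.39. Adcy2 differed by -0.33 ± 0.19, Adcy1 by -0.22 ± 0.25 and Adcy8 by -0.21 ± 0.34. The second Adcy1 probe set went slightly the other way, with 6.68 ± 0.40 in WT PDE10i and 6.59 ± 0.50 in WT vehicle (SD). The interval of Adcy8, from -0.92 to 0.51, is wide, and a miss of the threshold does not show that the groups were alike.

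For KO against WT under vehicle in striatum, Gnal differed by 0.15 ± 0.12, Adcy5 by -0.08 ± 0.14 and Adcy3 by 0.08 ± 0.12. Adcy1, Adcy8, Adcy2 and Adcy9 differed by 0.19 ± 0.26, -0.15 ± 0.36, 0.01 ± 0.20 and -0.04 ± 0.08. The smallest adjusted p among the 7 was 0.972. In hippocampus, with all arrays kept, the genotype and inhibitor differences of the 7 genes by their brightest probe sets lay between -0.12 and 0.16. The largest of these was Adcy3, at 8.96, 8.81, 8.98, 8.91 and 8.89 in KO vehicle, against a lowest of 8.55, a median of 8.77 and a highest of 8.91 in WT vehicle. These groups overlapped, with a difference of 0.16 ± 0.07 (adjusted p = 0.71). The second Adcy1 probe set lay farther apart, outside this range. It averaged 8.53 ± 0.23 in WT vehicle, 8.22 ± 0.22 in WT PDE10i and 8.19 ± 0.21 in KO vehicle hippocampus (SD). With every probe set tested by itself, 0 passed in these hippocampal comparisons.

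**Figure D3:**
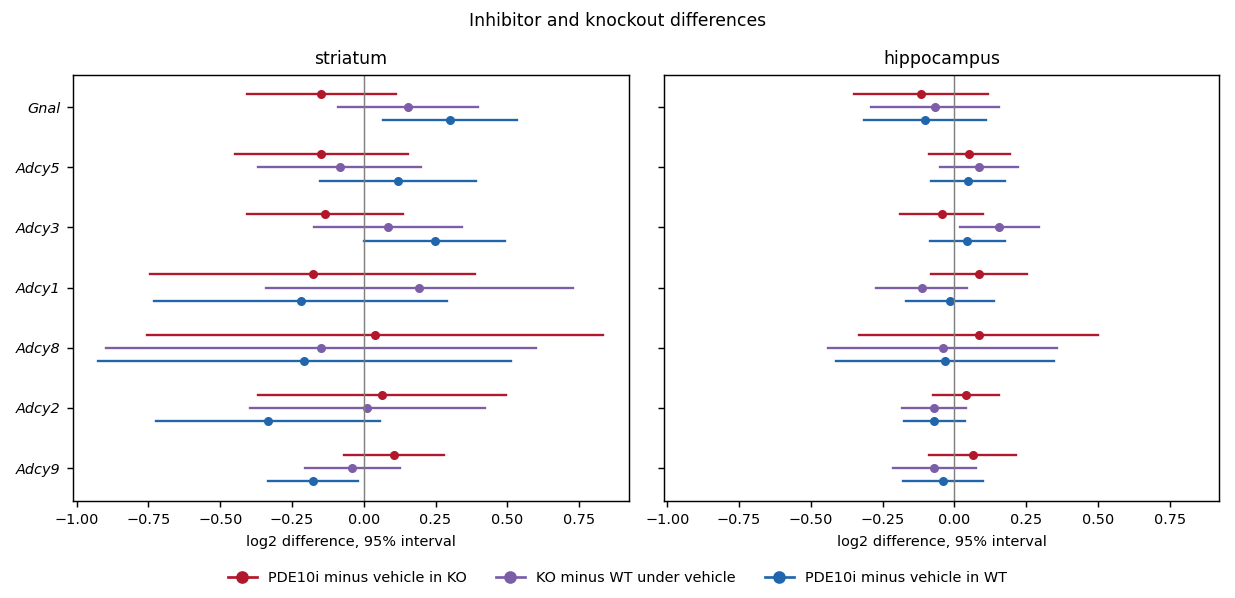
Differences on the log2 scale with 95% intervals (horizontal axes) for the 7 genes (rows) in striatum on the left and hippocampus on the right. Colours give PDE10i minus vehicle in KO, KO minus WT under vehicle and PDE10i minus vehicle in WT. Most intervals span 0. They are wider in striatum than in hippocampus for all 7 genes, and widest there for Adcy8, Adcy1 and Adcy2.

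Whether an effect differed between the regions was tested by itself in the fit of all 42 arrays. For the inhibitor in WT, 0 of 7 passed and 0.214% of all genes did, and 1 of 7 had an unadjusted p under 0.05, against 12.7% of all genes. This was Gnal, with a striatal minus hippocampal effect of 0.40 ± 0.16 (adjusted p = 0.263). Adcy3 had 0.20 ± 0.13 here, and 0.36 ± 0.11 without the 8 arrays (adjusted p = 0.0671). For the genotype under vehicle, 0 of 7 passed against 0.0495% of all genes, 0 had an unadjusted p under 0.05 against 5.29%, and the values ran from -0.17 for Adcy5 to 0.31 for Adcy1. Without the 8 arrays Adcy5 was at -0.26 and Adcy3 at -0.21, against -0.07 for Adcy3 with them.

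The striatal arrays differed among themselves in neuronal markers, and most of the 7 genes moved with these. The mean of 9 glutamatergic markers of cortex and hippocampus ranged from 6.64 to 9.28 over the 20 striatal arrays, against 9.66 to 9.87 over the 22 hippocampal arrays. By group it averaged 8.30 ± 1.04 in KO PDE10i, 8.32 ± 0.18 in KO vehicle, 7.17 ± 0.56 in WT PDE10i and 7.98 ± 0.85 in WT vehicle striatum (SD). Relations of the 7 genes with 10 marker lists, 70 in all, were tested by permutation over the 20 striatal arrays with Benjamini-Hochberg adjustment. These tests set each gene against shuffled arrays, not against other genes. The share of all genes that moved with the same markers was not counted, so the relations do not show a trait particular to the 7 genes.

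Adcy1 rose with the glutamatergic mean (Pearson r = 0.840, Spearman rho = 0.868, permutation p = 1e-05 for both, the smallest the 100000 permutations can give, adjusted p = 1.40e-04 and 2.33e-04). Its r was 0.842 without the 2 arrays farthest from the median of the marker mean and 0.863 for deviations from the group means. Adcy2 gave r = 0.866 and rho = 0.899 (permutation p = 1e-05 for both, adjusted p = 1.40e-04 and 2.33e-04), with r = 0.865 without the 2 farthest arrays and 0.836 for deviations. Both relations were thus of similar size within the groups. Adcy2 also followed the mean of 10 interneuron markers (r = 0.957, rho = 0.949, permutation p = 1e-05 for both, adjusted p = 1.40e-04 and 2.33e-04; r = 0.951 without the 2 farthest arrays).

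Adcy5 moved the other way, with the 11 projection neuron markers (r = 0.876, rho = 0.803, permutation p = 1e-05 and 6e-05, adjusted p = 1.40e-04 and 6.00e-04). Its r was 0.755 without the 2 farthest arrays and 0.889 for deviations from the group means. For Gnal the same relation was weaker (r = 0.745, rho = 0.507, permutation p = 5e-04 and 0.0239, adjusted p = 0.00275 and 0.0796), and r fell to 0.470 without the 2 farthest arrays, so it rests in part on those. Adcy8 fell as these markers rose (r = -0.780, rho = -0.812, permutation p = 3e-05 and 5e-05, adjusted p = 3.00e-04 and 5.83e-04; r = -0.819 without the 2 farthest arrays). Adcy3 followed the vascular mean instead (r = 0.856, rho = 0.639, permutation p = 2e-05 and 0.00288, adjusted p = 2.33e-04 and 0.0119; r = 0.757 without the 2 farthest arrays).

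Among KO PDE10i mice 2 arrays stood at opposite ends. Array 34 had a glutamatergic mean of 9.28 with Adcy1 at 11.63, Adcy8 at 6.47 and Adcy5 at 11.54. Array 35 had 6.87 with Adcy1 at 10.02, Adcy8 at 4.51 and Adcy5 at 12.34. The log2 difference between the 3′ and 5′ control probes of Gapdh, a sign of RNA shortening, was 0.142 on array 34 and 0.674 on array 35. It was 1.05 on WT vehicle 4, the lowest array of its group for Adcy1, Adcy8 and Adcy2, and 0.178 to 0.283 on the other 4 arrays of that group. Without the striatal array of the highest Gapdh difference in each group, the WT inhibitor difference in striatum was -0.50 ± 0.12 for Adcy2 (adjusted p = 0.0833) and -0.40 ± 0.19 for Adcy1, and the effect in striatum minus that in hippocampus was -0.43 ± 0.12 for Adcy2, against -0.26 ± 0.19 with all arrays, and -0.39 ± 0.19 for Adcy1, against -0.20 ± 0.26. The part of RNA quality in these values was not tested. With the glutamatergic mean as a covariate, the WT inhibitor difference in striatum was 0.23 ± 0.14 for Adcy1, -0.01 ± 0.12 for Adcy2, -0.08 ± 0.07 for Adcy9 and 0.17 ± 0.10 for Gnal, and none of the 7 passed. The part of tissue makeup in the differences between regions was not tested.

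**Figure D4:**
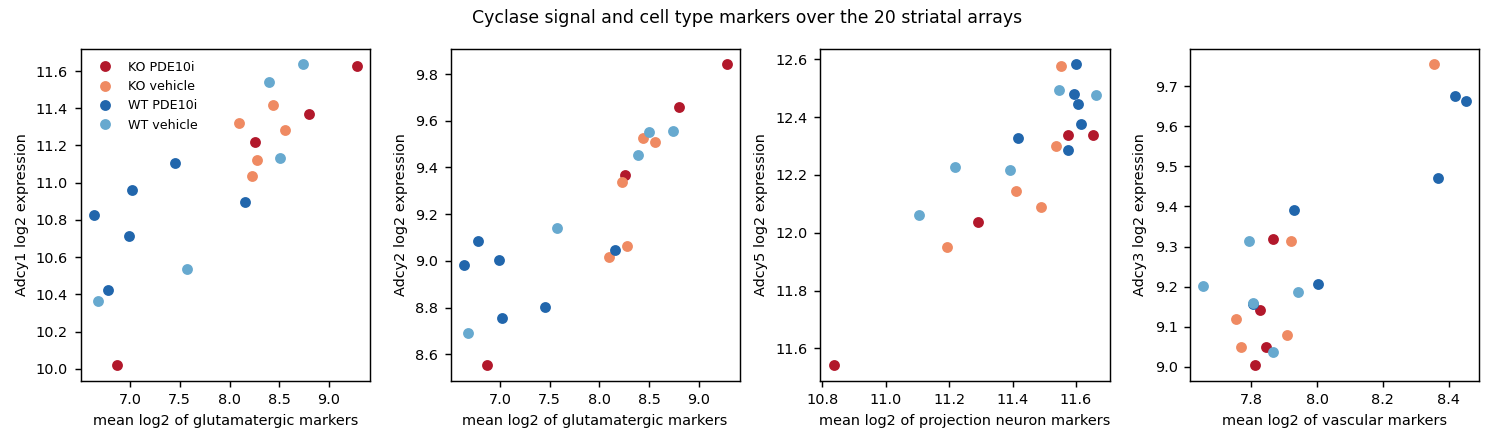
Log2 expression of Adcy1, Adcy2, Adcy5 and Adcy3 (vertical axes) against the mean log2 signal of a marker list (horizontal axes: glutamatergic, glutamatergic, projection neuron and vascular markers) on the 20 striatal arrays, coloured by arm. Adcy1 and Adcy2 climb with the glutamatergic mean (r = 0.840 and 0.866), Adcy5 with the projection neuron mean (r = 0.876), and the 4 highest Adcy3 values are on arrays with vascular means of 8.36 to 8.45.

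The genes most like each member over the 20 striatal arrays, by Pearson r and as a description, were picked over the same arrays, which share tissue makeup and preparation. For Adcy5 they were Ppp1r1b, the PKA-regulated phosphatase inhibitor of projection neurons (r = 0.954), Ankrd63 (0.944) and Pde1b (0.922), a calcium-dependent phosphodiesterase. For Gnal they were Mctp1 (0.915), Pcp4l1 (0.839) and Dda1 (0.809). Adcy1 was nearest to Olfm2 (0.931), Ablim1 (0.926) and Fut9 (0.926), and Adcy2 to Oxr1 (0.971), Mgat5 (0.969) and Syt13 (0.969). Adcy3 was nearest to Cxxc1 (0.953), Tiam2 (0.937) and Shb (0.929), Adcy8 to Zdhhc22 (0.948), Zmat4 (0.933) and Disp2 (0.933), and Adcy9 to Nos1ap (0.911), Ccdc186 (0.907) and Zbtb16 (0.907).

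The other genes of the pathway also differed between the regions in both directions. Under vehicle in WT, 6 of 15 measured G protein subunits and chaperones were higher in striatum, 6 were lower and 3 did not pass, where 15.9% of all genes were higher and 17.9% lower, with a median of 0.06 over the list and 0.03 over all genes. Gng7, the gamma subunit that assembles with Golf in striatum, was higher by 2.497 ± 0.161 (adjusted p = 1.05e-15). Ric8b, a chaperone of Golf, was higher by 1.502 ± 0.118, and Gnb5, the beta subunit that pairs with RGS proteins, by 0.99 ± 0.08.

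Of 9 measured receptors that raise cAMP, 3 were higher in striatum and 3 lower, where 15.9% of all genes were higher and 17.9% lower. Gpr6 was higher by 5.98 ± 0.28, Drd1, the dopamine receptor coupled to Golf, by 4.58 ± 0.22, and Htr6 by 0.49 ± 0.11. Of 13 receptors that lower cAMP, 6 were higher and 2 lower, among them Drd2 at 5.41 ± 0.18, Oprk1 at 2.58 ± 0.14 and Htr1b at 2.18 ± 0.13 higher in striatum. Receptors of both kinds were thus among the genes higher there.

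Of 8 regulators of cyclase activity, 5 were higher and 3 lower, with Rgs9, which speeds the shut-off of G protein alpha subunits, higher by 4.40 ± 0.13, the kinase gene Camk4 by 1.41 ± 0.09, and the protein kinase C gene Prkca lower by 1.22 ± 0.10. Of 13 cAMP effectors, 6 were higher and 3 lower. For regulators and effectors alike the shares of all genes were again 15.9% higher and 17.9% lower. Ppp1r1b, which like Rgs9 is also among the projection neuron markers, was higher by 4.24 ± 0.17, Arpp21 by 2.99 ± 0.19 and Prkar2b, a regulatory subunit of protein kinase A, by 1.98 ± 0.12. Of the 4 other cyclases 1 passed, where 33.9% of all genes did, and it was Adcy6, lower in striatum, at -0.58 ± 0.08 (adjusted p = 4.33e-07).

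No gene of these 6 pathway lists passed for the inhibitor or the genotype within either region. In striatum the smallest p of each list under PDE10i in WT belonged to Adcy4 (0.25 ± 0.09), Gng7 (0.44 ± 0.18), Htr7 (-0.31 ± 0.12), Grm2 (-0.65 ± 0.23), Camk2a (-0.14 ± 0.08) and Prkar2b (0.28 ± 0.10), with adjusted p from 0.305 to 0.593. For KO against WT under vehicle in striatum the gene nearest to the threshold was Gnb4, a beta subunit, at 0.94 ± 0.20 (adjusted p = 0.0778).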

How the data were processed

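Total RNA was hybridised to Affymetrix arrays, 42 in 8 groups. The authors deposited log2 values of 45101 probe sets. Per the submitters' processing notes these come from RMA, with no further run details. RMA normalizes quantiles, so differences in total RNA are removed. Array medians lay between 6.05 and 6.12, values between 2.55 and 15.1, and no genes were centred. The number of arrays limits the precision.

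Names come from the platform's annotation: 34945 probe sets had 1 gene (34741 matched to RefSeq, GRCm38.p6, for names) and 932 several. A gene was represented by its brightest probe set on average. limma 3.58.1 (lmFit, then eBayes; R 4.3.3) gave two-sided tests with p adjusted by Benjamini-Hochberg over 18193 genes and a threshold of 0.05, from a fit per region, or of all arrays between regions. Of 175 list entries, 153 matched a tested gene. Members and lists were chosen with earlier results of these data known. Named were all members, up to 3 genes per list with the smallest p among those passing (otherwise at most 1), the 3 genes most like each member, and Pde10a. The chromosome 17 score averages 15 genes ranked by genotype p-value in the opposite region, is scaled to a median of 0 in WT vehicle and 1 in KO PDE10i, with a midpoint of 0.5. Alternatives changed the probe set, filter, weights, prior, normalization, arrays, covariates and replicate block. The script was tested on simulated data.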

Additional observations from a re-analysis of the deposited data

Results flagged for a closer look

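Over the 56 combinations of gene and group, 2 held an array far from the others by Dixon's criterion, which flags about 1 in 20 groups by chance. Adcy2 was 9.92 on array 26 of hippocampus KO vehicle, against 10.11 to 10.18 on the other arrays of that group. Adcy8 was 6.75 on array 1 of hippocampus WT vehicle, against 7.44 to 7.66 on the others.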

How the results depend on the processing

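Of 2355 alternative fits of a member, 2344 kept its side of the threshold, 8 newly passed, 2 no longer passed and 1 reversed; signs of members past the threshold in neither fit were not judged, and such members have no settled direction. All but the reversal concerned Adcy3. In WT striatum the inhibitor count of 0 members became 1 without the doubted arrays (Adcy3, 0.42, adjusted p = 0.0128), where 769 of 18193 genes passed. It became 2 when the glutamatergic mean was a covariate as well, where 2312 genes passed. The 2 members were Adcy3 (0.43, adjusted p = 0.0117) and Adcy1 (0.52 in place of -0.22, adjusted p = 0.0171). The fit with both changes and both fits with the vascular mean were chosen after seeing the data, and the cause was not tested. Adcy3 in KO PDE10i between regions passed under 6 alternatives, with adjusted p from 0.00999 to 0.0459. Leaving out 1 array gave 6 to 7 members in both KO regional comparisons, 7 in both WT ones and 0 in the rest. Over all genes the WT striatal inhibitor count of 33 ran from 4 to 73 when 1 array was left out (without WT PDE10i arrays 15 and 14) and the knockout count of 25 from 8 to 82 (without WT vehicle 4 and KO vehicle 25); without the doubted arrays they were 769 and 145, and 87 for the knockout with array weights. Without the striatal array of highest Gapdh difference in each group they were 86 and 0. Array weights gave 195 for the inhibitor, and over all alternatives the counts spanned 0 to 2312 and 0 to 184. The effects between regions gave 39 genes (23 to 785 over alternatives) for the inhibitor and 9 (0 to 34) for the knockout. In hippocampus the count of 0 reached 154 with array weights for the inhibitor and 15 without the doubted arrays for the knockout. In striatum the count of 0 for the difference between the inhibitor effects reached 604 without the doubted arrays and with the glutamatergic covariate. Arrays of equal replicate number in the 2 regions were not alike as a set: r ran from -0.38 to 0.31 (median -0.04), with 6 of 20 pairs over 0.1. Only 4 striatal arrays correlated best with their own number, and the count expected by chance was not worked out. This does not settle whether equal numbers are 1 mouse. The chromosome 17 score put numbers 14 and 25 on the other side in both regions, and 12, 13, 15 and 26 in a single region. With the replicate block 7 members passed under WT vehicle, no call of a member changed, and the counts of 39 and 9 genes became 26 and 0. Dim probe sets limit what Adcy8 and the faint Adcy5 and Gnal sets can show.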
